A study of Saccharomyces cerevisiae with 12 samples.

Results

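The genes described here are 53 of the 5974 array features of a study of Ixr1 and oxygen in the budding yeast Saccharomyces cerevisiae. They are the genes for synthesis of arginine with carbamoyl phosphate (9), histidine (6), lysine (7), the aromatic amino acids (12), serine (4), threonine with homoserine (5), asparagine (2), glutamine with glutamate (4) and proline (3), plus GCN4 itself. They were chosen by pathway and by ORF name, and the branched-chain and sulfur pathways (10 and 16 genes) were kept apart for comparison. No measured value entered the choice of genes, although earlier results of these data were known when the list was drawn up.

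All strains were of the BY4741 background from EUROSCARF, a laboratory strain that lacks working HIS3, LEU2, MET17 and URA3 genes. Synthetic complete medium with 2% glucose, at 30 °C, was used for every group. The wild type and the strain labelled ixr1 null were each sampled in 3 conditions, with 2 arrays (A and B) per group and 12 arrays in all. The air cultures were aerobic. The hypoxia cultures grew overnight in anaerobic jars below 1% oxygen, with 20 mg of ergosterol per litre and 0.5% Tween 80 added. The shift cultures grew in air to an optical density of 0.8 and were then bubbled with nitrogen for 3 hours. Low oxygen, the added sterol and detergent, and the length of growth therefore cannot be told apart in the hypoxia against air comparison. The design text speaks of biological and of technical replicates, and the labels do not say which of them A and B are, so a p-value speaks only of the spread among these arrays.

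Gcn4 is the transcription activator of general amino acid control. When an amino acid runs short, uncharged tRNA activates the kinase Gcn2, which phosphorylates the initiation factor eIF2 and slows initiation. Translation of GCN4 mRNA then rises because ribosomes bypass short upstream reading frames in its leader, so its mRNA level need not follow its protein level. Gcn4 binds upstream of most of the synthesis genes described here, and several of these pathways also have their own regulators, such as the Arg80, Arg81, Arg82 and Mcm1 complex for arginine and Lys14 for lysine.

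Each array carries 1 value per ORF with a mean near 1, and all levels below are those values after quantile normalization, so they are relative to the other genes on the array. RNA came from whole cultures, so fewer cells making a transcript and less transcript per cell cannot be told apart. A probe's level was not compared with another probe's, except as the change of a ratio and as the median rank of the whole list within an array. Between 69 and 3489 probes per array (1.16% to 58.4%) were listed at 0, the most on the array ixr1 null shift A. That array listed 18 of the 53 genes at 0, and 11 of these were above 0 on the other 11 arrays. In all, 34 genes were above 0 on every array. The IXR1 probe (YKL032C) was not lower on the arrays labelled ixr1 null. In air its deposited readings were 8.11 and 7.03 in the wild type, and higher, at 9.75 and 8.64, on the arrays labelled ixr1 null. After normalization the groups overlapped in air, with a log2 difference of 0.14 (limma adjusted p = 0.997). In hypoxia the ixr1 null arrays read 0.93 higher on the log2 scale (limma adjusted p = 0.403). The labels do not say whether that probe lies in the deleted part, so the genotype named below is the label only. IXR1 was lower in hypoxia than in air on both sets of arrays, with log2 differences of -4.46 and -3.67.

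Overnight hypoxia against air came first among the comparisons. In the wild type 12 of the 48 genes that could be tested fell and none rose. The fallen genes belonged to arginine (ARG4, ARG7), histidine (HIS1, HIS4), lysine (LYS9), aromatic (ARO4, TRP2, TRP3), serine (SER33), asparagine (ASN1, ASN2) and glutamate synthesis (GDH1). Over all probes 11.9% were called at an adjusted p under 0.05 (limma, Benjamini-Hochberg over 4969 probes), and 6.84% were called as lower. The median log2 difference of the tested genes was -0.66, against 0.01 for all probes, and 39 of the 48 were below 0. Leaving out the array wild type air B left 7 calls. The 5 genes not tested, ARG2, ARG8, HIS7, TYR1 and PRO1, were each listed at 0 on at least 1 of these 4 arrays, and their readings on the wild type air and hypoxia arrays lay between 0 and 0.291.

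**Figure D1:**
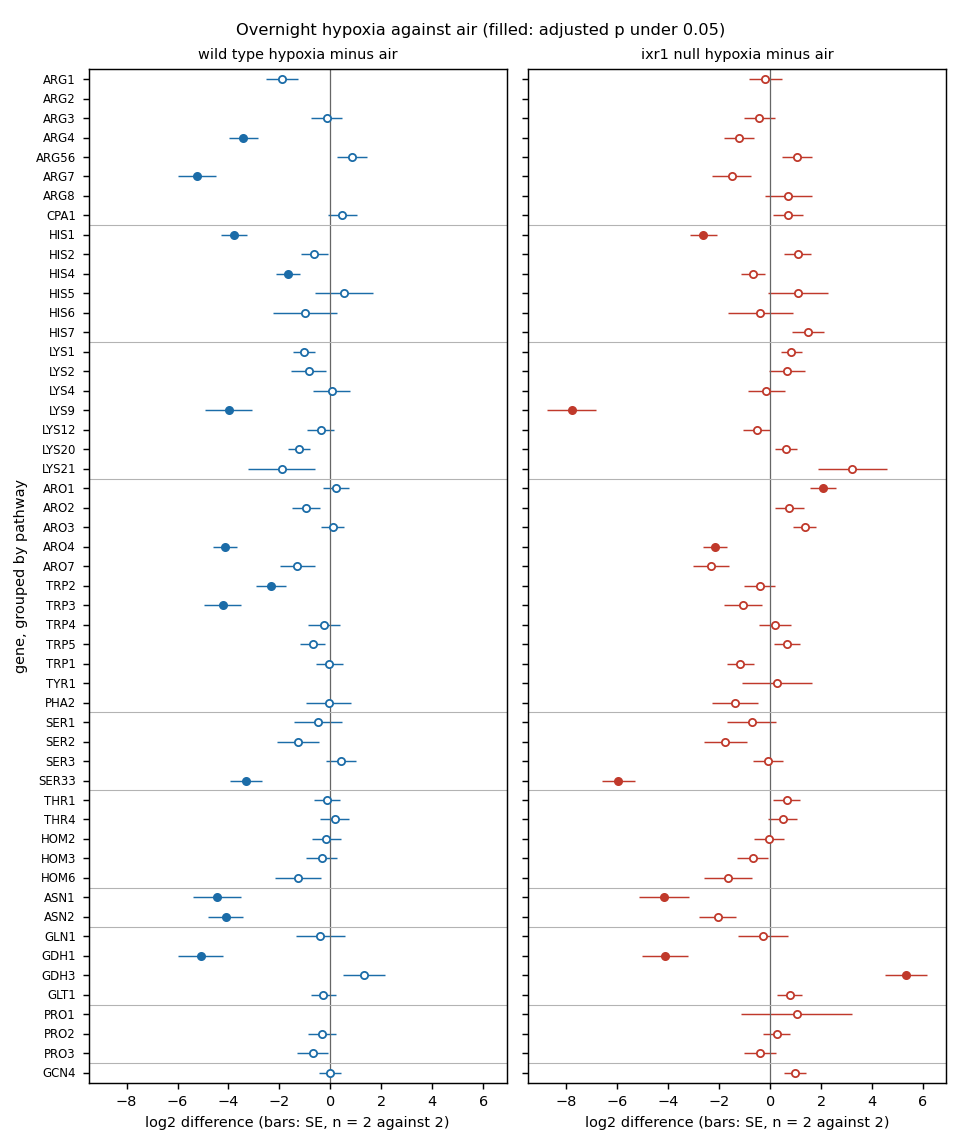
Log2 difference of hypoxia minus air for each gene shown, by pathway, in the wild type (left) and on the ixr1 null arrays (right). Points are means of 2 arrays minus 2 arrays with SE bars, filled where the adjusted p was under 0.05. In the wild type the 12 filled points all lie below 0, and on the ixr1 null arrays 6 lie below 0 and 2 above.

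Among the arginine genes, ARG4 (YHR018C), the argininosuccinate lyase of the last step, read 1.81 and 1.20 in wild type air, against 0.0801 and 0.237 in wild type hypoxia. That was a 10.7-fold fall, a log2 difference of -3.41 ± 0.57 (SE, n = 2 arrays per group, limma adjusted p = 0.00276). ARG7 (YMR062C), the mitochondrial ornithine acetyltransferase, read 1.08 and 1.30 in air, against 0.0307 and 0.0320 in hypoxia. The groups did not overlap in either gene. The hypoxic ARG7 readings were below the 10th percentile of the positive readings of an array, and the alternative analyses placed its log2 difference between -5.48 and -4.33, always called. The other arginine genes tested were not called. ARG1, the argininosuccinate synthetase that feeds ARG4, had a log2 difference of -1.91 (adjusted p = 0.0988), whereas ARG56, the acetylglutamate kinase and reductase, had 0.85 and CPA1, a carbamoyl phosphate synthetase subunit, had 0.47.

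In histidine synthesis the first enzyme was among the strongest falls. HIS1 (YER055C), ATP phosphoribosyltransferase, read 1.85 and 1.11 in wild type air, against 0.0991 and 0.109 in hypoxia, a 13.8-fold fall (log2 difference -3.78 ± 0.52, adjusted p = 0.00131). HIS4 (YCL030C), a multifunctional enzyme of the early and final steps and a classical Gcn4 target, read 0.479 and 0.456 in air, against 0.125 and 0.173 in hypoxia. Its 3.18-fold fall sat close to the threshold (-1.67 ± 0.47, adjusted p = 0.0445) and lost the call when any 1 array of the comparison was left out. The remaining histidine genes tested, HIS2, HIS5 and HIS6, were not called.

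In lysine synthesis LYS9 (YNR050C), the saccharopine dehydrogenase of the penultimate step, read 1.496 and 0.819 in wild type air, against 0.0828 and 0.0580 in hypoxia. Its 15.97-fold fall (log2 difference -3.997 ± 0.93, adjusted p = 0.0171) lost the call without any 1 of the 4 arrays, where the log2 difference stayed between -4.43 and -3.56. LYS20, a homocitrate synthase of the first step, and LYS1, the last enzyme, had log2 differences of -1.23 and -1.03 with adjusted p of 0.124 and 0.172. LYS4 and LYS12, which act between them, had log2 differences of 0.05 and -0.38.

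The aromatic pathway showed the gene with the smallest p of the 53. ARO4 (YBR249C), the tyrosine-inhibited DAHP synthase at the entry to the shikimate pathway, read 1.57 on both wild type air arrays, against 0.121 and 0.0660 in hypoxia. This was a 17.5-fold fall (log2 difference -4.13 ± 0.47, adjusted p = 0.000319), kept under every alternative run. The trunk genes after it, ARO1 and ARO2, had log2 differences of 0.22 and -0.94 and were not called. In the tryptophan branch, TRP2 (YER090W), anthranilate synthase, read 0.416 and 0.308 in air, against 0.0606 and 0.0843 in hypoxia, a 5.01-fold fall (-2.32 ± 0.60, adjusted p = 0.0287) that was not called when any 1 of the 4 arrays was left out. Its partner subunit TRP3 (YKL211C), which also carries indole-glycerol phosphate synthase, read 1.43 and 0.734 in air, against 0.0300 and 0.09998 in hypoxia, the last values partly in the dim range (log2 difference -4.23, from -5.09 to -3.36 over the alternatives). The genes for the steps between and after them, TRP4, TRP1 and TRP5, lay at -0.26, -0.04 and -0.70 on the log2 scale and were not called, so 2 of the 5 tryptophan genes were called as lower.

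In serine synthesis SER33 (YIL074C), a phosphoglycerate dehydrogenase, read 6.53 and 8.92 in wild type air, against 0.909 and 0.654 in hypoxia, a 9.90-fold fall (log2 difference -3.31 ± 0.63, adjusted p = 0.00581), with adjusted p of 0.0523 without the array wild type air B and 0.0608 without wild type hypoxia B. SER1 and SER2, the later steps, had log2 differences of -0.47 and -1.26 and were not called. Both asparagine synthetase genes fell. ASN2 (YGR124W) read 2.96 and 2.54 in air, against 0.124 and 0.203 in hypoxia, a 17.3-fold fall (-4.11 ± 0.70, adjusted p = 0.00295). ASN1 (YPR145W) read 1.39 and 1.66 in air, but its hypoxic readings of 0.0239 and 0.201 differed more from each other than those of any other tested gene of the list in that group. Its log2 difference of -4.45 ± 0.96 became -2.92 (adjusted p = 0.102) without the array wild type hypoxia A, and the call was also lost without either air array (adjusted p = 0.0620 and 0.0713).

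GDH1 (YOR375C), the NADP-dependent glutamate dehydrogenase that assimilates ammonia, read 4.44 and 1.89 in wild type air, against 0.150 and 0.0482 in hypoxia. The groups did not overlap, and the log2 difference was -5.09 ± 0.89 (adjusted p = 0.00344), with a range of -5.91 to -4.27 over the alternatives, both ends from leaving out 1 hypoxia array. Its lower hypoxic reading was dim. GLN1, glutamine synthetase, read 10.8 and 11.4 in air, against 7.73 and 9.23 in hypoxia and was not called. Nor was any of the 5 threonine and homoserine genes, whose median log2 difference was -0.16, or of the 2 proline genes tested. In this comparison limma gave 15 of the 48 genes (31.2%) an unadjusted p under 0.05, against 22.6% of all probes.

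**Figure D2:**
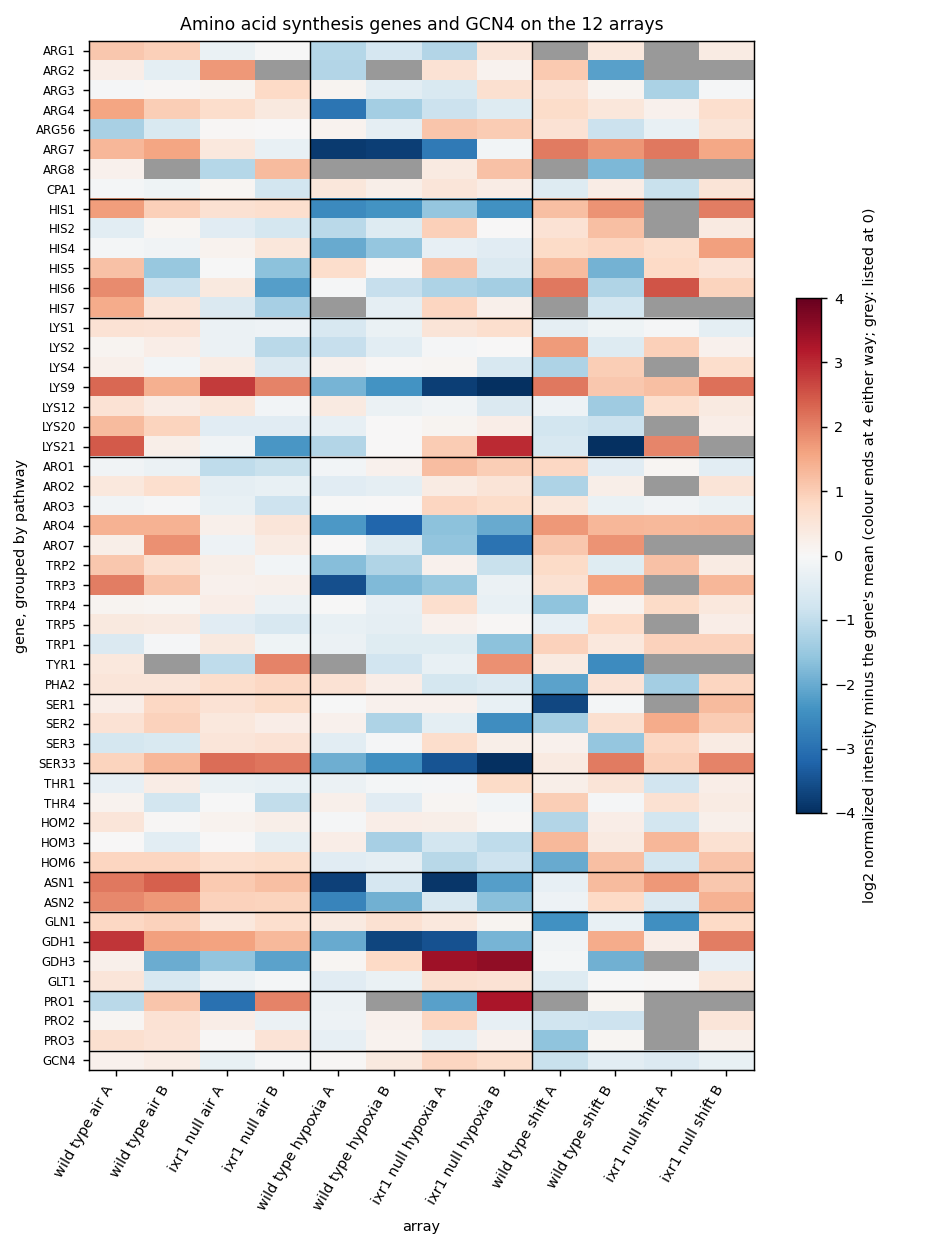
Log2 normalized intensity of 52 of the 53 genes (rows, by pathway) on the 12 arrays (columns), each gene relative to its mean over the arrays where it was above 0, with the colour scale ending at 4 either way. Grey marks a value listed at 0, as for 18 genes on ixr1 null shift A. ARG7, HIS1, LYS9, ARO4, SER33, ASN1 and GDH1 are blue on the wild type hypoxia arrays (pale for ASN1 on B) and red on the wild type air arrays.

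Among the ixr1 null arrays, hypoxia against air gave 8 calls in 52 genes tested (all but ARG2), near the share over all probes (12%). The 6 that fell compare with 5.58% of all probes called as lower, and the 2 that rose with 6.41% called as higher. The median log2 difference was -0.11, against -0.20 for all probes, so by this measure no fall of the list beyond that of all probes was seen. The median percentile of the 53 genes was nonetheless lower, at 68.85 and 64.4 in hypoxia against 73.37 and 74.37 in air. That difference was not tested. All 6 that fell had also fallen in the wild type, where they made up 50% of the list of 12. The matching share over all probes was not worked out. The groups share no array, but the normalization and each probe's variance came from all arrays, so the lists are not independent. Without ixr1 null air A or without ixr1 null air B the count was 3, and without ixr1 null hypoxia A it was 5.

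SER33 read 16.7 and 15.7 in ixr1 null air, against 0.325 and 0.207 in ixr1 null hypoxia, a 62.3-fold fall (log2 difference -5.96 ± 0.64, adjusted p = 0.000353). This was the smallest p of the list in these arrays, and the call held under every alternative run. LYS9 read 2.08 and 1.19 in air, against 0.0220 and 0.00230 in hypoxia, both hypoxic readings being near the floor of the array. Its log2 difference ranged from -9.42 to -4.74 over the alternatives, so a fall was called throughout while its size was not fixed. HIS1 (0.874 and 0.929 against 0.198 and 0.107) fell 6.19-fold and ARO4 (0.696 and 0.831 against 0.194 and 0.147) fell 4.51-fold, with adjusted p of 0.0119 and 0.0134. ASN1 read 0.657 and 0.731 in air, against 0.0217 and 0.0696 in hypoxia, and GDH1 read 1.87 and 1.499 in air, against 0.0543 and 0.167 in hypoxia. The last 4 genes had higher adjusted p without ixr1 null air A or B, between 0.0668 and 0.105, and were then not called.

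The 2 genes that rose on the ixr1 null arrays were GDH3 and ARO1. GDH3 (YAL062W), the second NADP-dependent glutamate dehydrogenase, read 0.148 and 0.101 in ixr1 null air, against 4.70 and 5.16 in ixr1 null hypoxia, a 40.1-fold rise (log2 difference 5.33 ± 0.84, adjusted p = 0.00374), called under every alternative run. On the wild type arrays it read 0.515 and 0.112 in air, against 0.469 and 0.771 in hypoxia, so there the groups overlapped. ARO1 (YDR127W), the large protein that carries most steps between DAHP and chorismate, read 0.799 and 0.866 in ixr1 null air, against 3.83 and 3.17 in hypoxia, a 4.19-fold rise (2.07 ± 0.52, adjusted p = 0.0276) that was lost when any 1 of the 4 arrays was left out (adjusted p from 0.0846 to 0.152).

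For some reactions with a pair of genes, the ratio within the pair differed between hypoxia and air. Of the DAHP synthases, ARO4 fell in both sets of arrays, whereas ARO3, the phenylalanine-inhibited form, read 3.48 and 3.75 in wild type air, against 3.80 and 3.87 in hypoxia. The log2 ratio of ARO4 to ARO3 changed by -4.22 in the wild type and by -3.52 on the ixr1 null arrays. The ratio of SER33 to SER3, its fellow phosphoglycerate dehydrogenase, changed by -3.73 and -5.89, and that of GDH1 to GDH3 by -6.41 and -9.46. In these 3 pairs the ratios in hypoxia lay below every ratio in air in both sets. The ratio of ASN1 to ASN2 overlapped between air and hypoxia in the wild type (change -0.34), as did that of the homocitrate synthases LYS20 to LYS21 (0.68), and both were lower in hypoxia without overlap on the ixr1 null arrays (-2.09 and -2.60), where LYS21 and ASN1 had dim readings. These pairs encode similar proteins, and the labels do not say how far each probe also takes up the partner's cDNA. These changes were described and not tested.

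**Figure D3:**
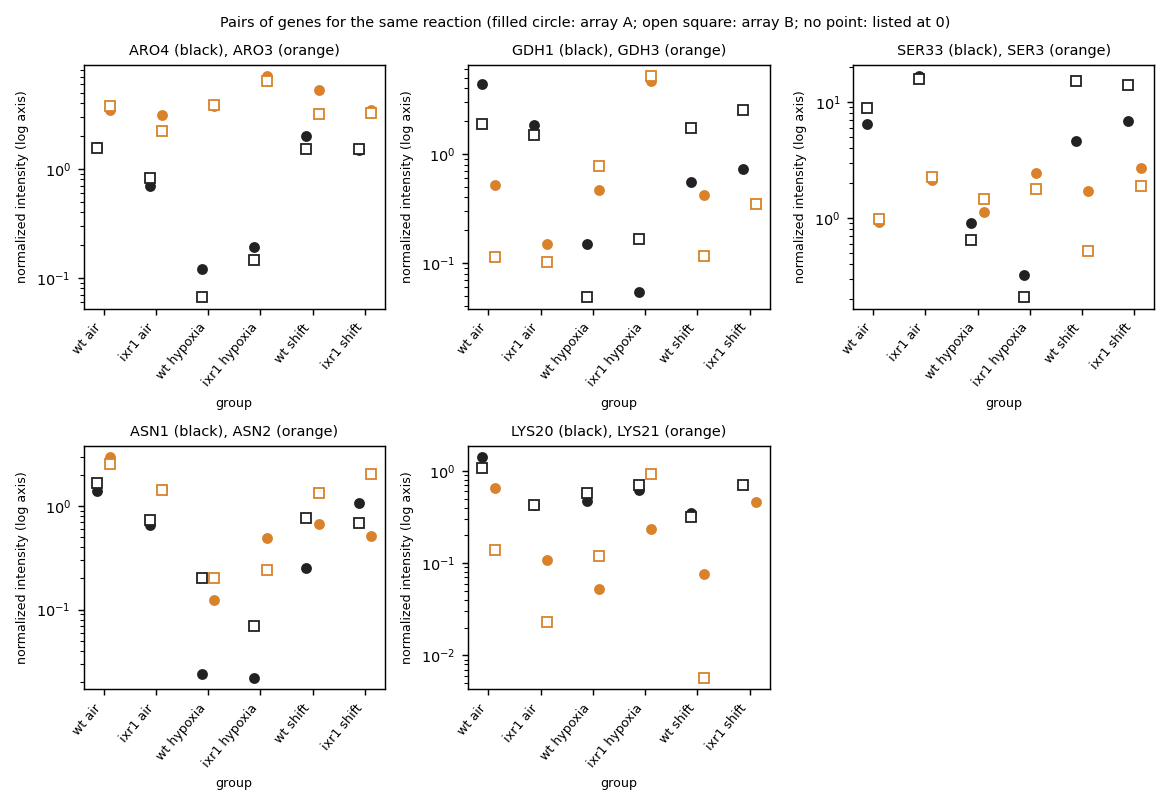
Normalized intensity (log axis) of 5 pairs of genes for the same reaction, by group, with array A as a filled circle and array B as an open square. ARO4, GDH1 and SER33 (black) drop in both hypoxia groups, and GDH3 (orange) stands at 4.70 and 5.16 in ixr1 null hypoxia.

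GCN4 (YEL009C) itself was above 0 on every array and was called in none of the 11 comparisons made. It read 6.98 and 7.57 in wild type air, 6.38 and 8.19 in wild type hypoxia and 3.38 and 4.69 in wild type shift. On the ixr1 null arrays it read 5.01 and 6.08 in air, 11.3 and 10.1 in hypoxia and 4.26 and 5.09 after the shift. The highest readings were thus those of ixr1 null hypoxia, which overlapped with no other group, and the lowest those of the wild type shift, which overlapped with the ixr1 null shift. Hypoxia minus air was -0.01 ± 0.44 on the log2 scale in the wild type (adjusted p = 0.994) and 0.96 ± 0.43 on the ixr1 null arrays (adjusted p = 0.217). No fall of GCN4 mRNA was thus detected on the wild type hypoxia arrays on which 12 of the synthesis genes were lower. After the shift it was 1.20 ± 0.39 lower than in hypoxia on the ixr1 null arrays (adjusted p = 0.0527), a difference that passed the threshold under 3 of 14 alternatives. An array of mRNA does not report Gcn4 protein or its translation.

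**Figure D4:**
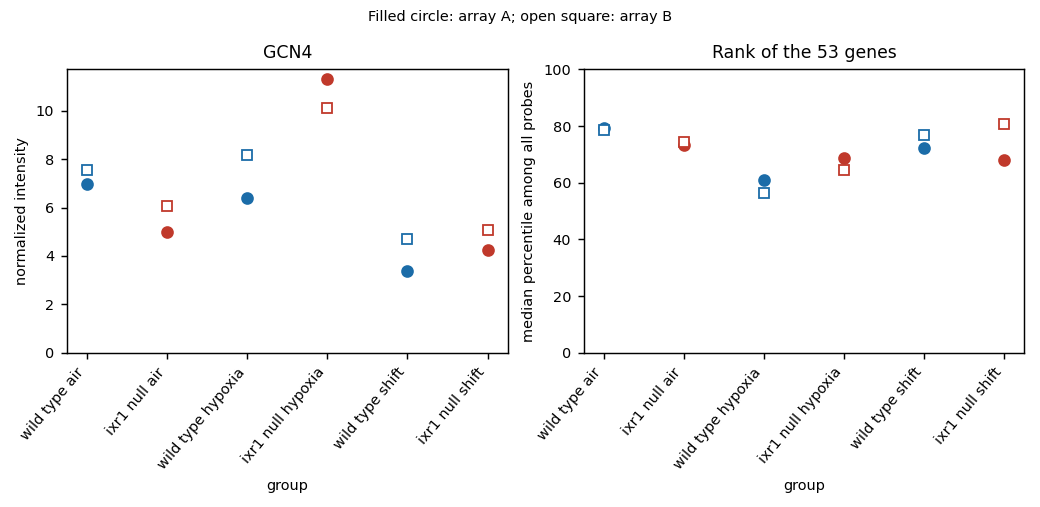
Left, normalized intensity of GCN4 by group. Right, median percentile of the 53 genes among all probes of the same array. Blue is the wild type, red the ixr1 null arrays, filled circles are array A and open squares array B. GCN4 is highest at 11.3 and 10.1 in ixr1 null hypoxia, and the median rank of the genes lies between 56 and 69 in hypoxia and between 73 and 79 in air.

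The rank of the genes within each array does not depend on scaling between arrays. Their median percentile lay between 73 and 79 on the air arrays, between 56 and 69 on the hypoxia arrays and between 68 and 81 on the shift arrays. The 4 hypoxia arrays held 3 of the 4 lowest medians and overlapped with the shift arrays only through ixr1 null shift A, the array with the most zeros.

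The test of whether the response to hypoxia differed between the genotypes called none of 48 genes, against 0.145% of all probes. An unadjusted p under 0.05 was found by limma for 13 of the 48 (27.1%), against 15.3% of all probes. The interaction is the ixr1 null difference minus the wild type difference. It was above 0 for 35 of the 48 genes, with a median of 0.70 against -0.24 over all probes. Its largest values, apart from probes with a dim reading, were those of GDH3 (4.01 ± 1.16, adjusted p = 0.159), SER33 (-2.65 ± 0.89, adjusted p = 0.206) and ARG4 (2.19 ± 0.81, adjusted p = 0.242). The calls in one set of arrays and not in the other are therefore not shown to be a difference between genotypes. With the replicate letter as a block within each condition, the smallest adjusted p among the genes was 0.0514, for LYS21, and none was called.

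Direct comparison of the genotypes within a condition also called none of the genes. In air 0 of 50 passed, as for all probes (0%), with 3 (6%, against 7.57% of all probes) at an unadjusted p under 0.05, the lowest that of LYS20 (log2 difference -1.52 ± 0.44, adjusted p = 0.480). In hypoxia 0 of 48 passed against 0.279% of all probes, with 10 at an unadjusted p under 0.05 (20.8%, against 14.3%). GDH3 stood 3.03 ± 0.83 higher on the log2 scale on the ixr1 null arrays (adjusted p = 0.173). Without ixr1 null hypoxia A, ARG7 (3.67) and LYS9 (-4.92) were called, both from dim readings. After the shift 0 of 34 passed (0% of all probes), with 3 at an unadjusted p under 0.05 (8.82%, against 7.62%). For the response to the shift, the genotype difference was called for 0 of 34 genes (0% of all probes), with 1, LYS12, at an unadjusted p under 0.05 (2.94%, against 9.78%). With the replicate block within condition, 20 of 2231 probes were called after the shift and 26 of 2178 for the response to it. None was a gene of this list. The smallest limma adjusted p among the genes were then 0.174 (LYS12) and 0.0915 (HIS6).

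The nitrogen shift gave different levels from overnight hypoxia. In the wild type 10 of 47 genes were higher after the shift than in hypoxia and none was lower, against 5.29% of all probes called as higher and 9.03% called either way. They were ARG4, ARG7, HIS1, HIS4, LYS9, ARO4, TRP3, SER33, ASN2 and GDH1. The wild type hypoxia arrays are shared with the comparison against air, so this is no separate evidence that these genes were low there. What the shift arrays add is their level. HIS1 read 1.33 and 2.00 after the shift, against 1.85 and 1.11 in air. ARO4 read 2.00 and 1.51, against 1.57 on both air arrays, and ARG7 read 1.83 and 1.49, against 1.08 and 1.30. These shift readings lay within or above the air readings, except that ARO4 B lay slightly below. ASN2 (0.667 and 1.34 against 2.96 and 2.54) and GDH1 (0.552 and 1.72 against 4.44 and 1.89) lay below both air readings. So did ARG4 (1.03 and 0.830 against 1.81 and 1.20). HIS4 (0.865 and 0.930) lay above both air readings. LYS9 (1.31 and 0.635), SER33 (4.59 and 15.1) and TRP3 (0.519 and 1.04) each had a reading below the range of the air arrays. The SER33 readings were far apart. The count was 4 without the array wild type hypoxia A, 6 on the deposited intensities, 5 with arrays centred on their medians and 4 in a fit of these 4 arrays alone.

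On the ixr1 null arrays, 10 of 34 genes were higher after the shift than in hypoxia and none was lower, against 16.7% of all probes called as higher and 20.2% called either way. The members' median log2 difference was 0.53, against 0.61 for all probes, and on deposited intensities both were negative (-0.11 and -0.14), so this comparison is read only relative to all probes. The count was then 3, namely LYS9, ARO4 and SER33, which were called under every alternative run. SER33 read 6.88 and 14.1 after the shift, LYS9 0.692 and 1.38, and ARO4 1.48 and 1.503. The genes called here and not in the wild type comparison were ASN1, TRP1, SER2 and HOM3. ASN1 read 1.07 and 0.680 after the shift against 0.0217 and 0.0696 in hypoxia. TRP1 (YDR007W), the phosphoribosylanthranilate isomerase, read 0.713 and 0.712 against 0.267 and 0.1198. HOM3 (YER052C), aspartate kinase, read 3.21 and 1.94 against 0.769 and 0.627, and SER2 (YGR208W), phosphoserine phosphatase, read 0.452 and 0.329 against 0.124 and 0.0290. Their groups did not overlap, yet TRP1, SER2 and HOM3 had adjusted p of 0.0168, 0.0431 and 0.0495 and all lost the call on deposited intensities. Without ixr1 null hypoxia A or B the count was 6.

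Compared with air, the shift changed none of the genes at the threshold. In the wild type 0 of 48 were called, against 0.749% of all probes, with 5 at an unadjusted p under 0.05 (10.4%, against 15.8%). The lowest of these was LYS20, which read 0.350 and 0.319 after the shift and 1.40 and 1.07 in air (log2 difference -1.87 ± 0.44, adjusted p = 0.110). The genes' median was -0.20, against 0.04 for all probes. On the ixr1 null arrays 0 of 34 were called, against 1.97% of all probes, with 2 at an unadjusted p under 0.05 (5.88%, against 14.5%), those of ARG7 and ARO4. The median there was 0.33, against 0.30 for all probes, and on deposited intensities -0.21 against -0.29.

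Agreement between the A and B arrays was lower in the shift groups, and this touches every shift result. In the wild type shift 30 of 49 genes differed more than 2-fold between A and B, and in the ixr1 null shift 10 of 34 did. In the air and hypoxia groups this held for 6 to 17 genes of 48 to 53, so by this count only the wild type shift lay outside their range. Spearman's rho between A and B over the genes was 0.644 and 0.604 in the shift groups and 0.903 to 0.961 in the others, as a description across genes of the same arrays. Over all probes rho was 0.692 and 0.590 in the shift groups and 0.830 to 0.917 in the others. The lower agreement was thus not particular to these genes. The list as a whole was not lower on A. B was the higher array for 26 of 49 genes in the wild type shift and for 18 of 34 in the ixr1 null shift. ARO1 and HOM3 were among those higher on A in both genotypes. HOM3 read 3.11 on A and 1.65 on B in the wild type, and 3.21 and 1.94 on the ixr1 null arrays. Several other genes were low on A in both genotypes. HOM6 (YJR139C), homoserine dehydrogenase, read 1.39 on A and 12.8 on B in the wild type, and 3.37 and 12.5 on the ixr1 null arrays. GLN1 (YPR035W) read 1.14 and 4.94, and 1.10 and 10.6. PHA2 (YNL316C), prephenate dehydratase, read 0.315 and 2.03, and 0.545 and 2.50. SER1 (YOR184W), phosphoserine aminotransferase, read 0.231 and 2.67 in the wild type and was listed at 0 on A and at 6.88 on B on the ixr1 null arrays. The B readings of HOM6 and PHA2 lay close to or above air, at 10.3 and 10.1 for HOM6 and 1.93 and 1.96 for PHA2 in wild type air.

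**Figure D5:**
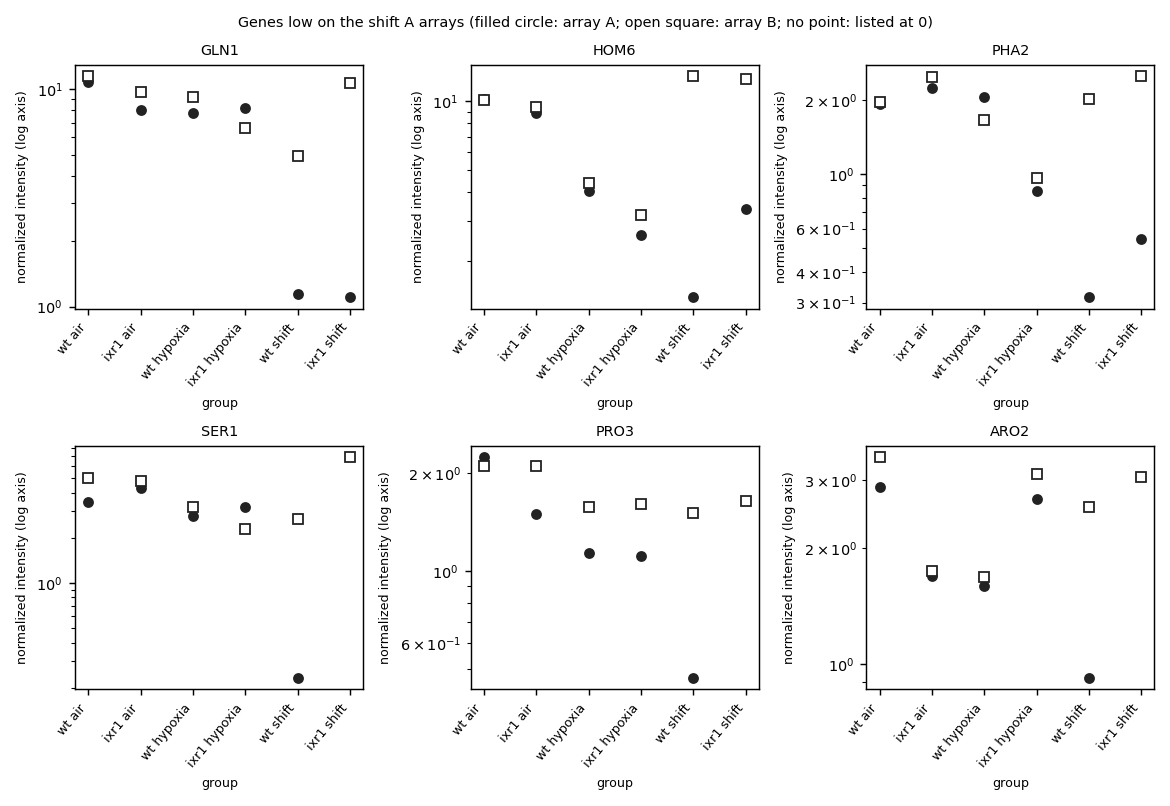
Normalized intensity (log axis) of GLN1, HOM6, PHA2, SER1, PRO3 and ARO2 by group, with array A as a filled circle and array B as an open square. These genes were chosen after their values were seen, as genes low on the shift A arrays, and do not stand for the whole list. In the shift groups A lies below B for every gene shown where both were above 0, as for HOM6 at 1.39 and 12.8 in the wild type.

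Without both shift B arrays, 7 genes were called as lower after the shift than in air in the wild type (LYS20, ARO2, PHA2, SER1, HOM6, GLN1 and PRO3), and without wild type shift B alone, 3 were (SER1, HOM6 and PRO3). On the ixr1 null arrays, leaving out both B arrays gave 4 calls, with PHA2, HOM6 and GLN1 lower and LYS2 higher on the normalized scale, where the median of all probes depends on the scaling. Without either A array no gene was called. Whether any of these genes was called against air thus rests on which shift array is read. Whether A and B differ in culture, RNA or hybridization was not tested.

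The genes that set the translation and turnover of Gcn4 showed no call. Of 13 tested genes for Gcn2, its activators, eIF2, eIF2B and Gcn4 turnover, 0 passed in hypoxia against air in either set of arrays. In the wild type and on the ixr1 null arrays, 3 (23.1%) and 2 (15.4%) had an unadjusted p under 0.05 (limma), against 22.6% and 23.5% of all probes. Their medians were -0.68 and -0.17, against 0.01 and -0.20 for all probes. Of the 13, 10 lay below 0 in the wild type and 8 on the ixr1 null arrays. Among 18 pathway regulators tested in the wild type, 1 fell and none rose, no more than the 6.84% of all probes called as lower. It was MCM1, a MADS-box factor that acts with the arginine regulators and at many other genes (log2 difference -6.36 ± 0.62, adjusted p = 0.000159), and it fell on the ixr1 null arrays as well (-5.39 ± 0.62, adjusted p = 0.0005). There 2 of 18 regulators tested fell, against 5.58% of all probes, and 1 rose, against 6.41%. Besides MCM1, ARG82, the inositol polyphosphate kinase of the arginine complex, fell (-2.07 ± 0.45). RTG3, a retrograde-response factor, rose, from deposited air readings of 0.111 and 0.0118, the second of them dim.

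Amino acid permeases moved in both directions. The shares of all probes beside them are 6.84% lower and 5.09% higher in the wild type, and 5.58% lower and 6.41% higher on the ixr1 null arrays. In the wild type 6 of 21 fell in hypoxia, among them CAN1, the arginine permease (log2 difference -5.68), and LYP1, the lysine permease (-4.86), both with dim readings, and 1 rose. On the ixr1 null arrays 3 of 22 fell, with CAN1 (-4.34 ± 0.49) and LYP1 (-4.09) again among them, and 6 rose. Among the 6 were MUP3, a low-affinity methionine permease (3.78 ± 0.77), and VBA2, a vacuolar basic amino acid transporter (3.53 ± 0.77). MUP3 was left untested in the wild type by a value of 0 on air B. Its deposited wild type readings were 0.0737 and 0 in air, against 2.86 and 3.63 in hypoxia. Its higher level in hypoxia is thus not particular to the ixr1 null arrays. Of the breakdown genes, ARO8, an aromatic aminotransferase, fell in the wild type (-1.69 ± 0.47) and CAR1, arginase, rose on the ixr1 null arrays (4.79 ± 1.01, adjusted p = 0.0252), 1 of 12 tested in each case, near the shares of all probes just given. CAR1 was not tested in the wild type, being listed at 0 on air B. Its deposited readings there were 0.0202 and 0 in air, against 1.32 and 1.93 in hypoxia. In ixr1 null hypoxia they were 5.28 and 0.971, so the rise is not particular to the ixr1 null arrays. Of the remaining genes of the same pathways, SHM1, mitochondrial serine hydroxymethyltransferase, and ORT1, the mitochondrial ornithine carrier, were the 2 of 9 that fell in the wild type, against the same 6.84%.

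The neighbouring pathways had lower medians in the same comparison. Of 8 branched-chain genes tested in the wild type 4 fell, against 6.84% of all probes, with a median log2 difference of -4.08 and the smallest p for ILV6 (-5.29 ± 0.46) and LEU4 (-4.66 ± 0.56). Of 15 sulfur genes 5 fell, with a median of -1.18 and the smallest p for SAM1 (-7.49 ± 0.60) and MET14 (-3.98 ± 0.53). The difference between the lists was not tested. Over 48 genes tested in both genotypes, ASN1 and GDH1 moved more than 16-fold the same way in both, as did 116 of 4844 probes (2.39%). LYS9 fell just short of that limit in the wild type, with log2 differences of -3.997 there and -7.79 on the ixr1 null arrays. ASN1, GDH1 and LYS9 each had a dim reading in hypoxia.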

How the data were processed

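Expression was measured on 12 arrays hybridised with radiolabelled, oligo-dT-primed cDNA, per the labels' protocols. The authors deposited 1 intensity per ORF and array on a linear scale, with 0 where nothing was read and a mean near 1 on each array. The labels do not say how the authors' values were scaled. Arrays have no read depth, and their number sets the precision. The table had 0 further columns of samples. Of its 5974 ORF names 5571 matched RefSeq locus tags, and symbols came from RefSeq.

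Intensities were quantile normalized over the 12 arrays, values of 0 were treated as missing and the rest taken to log2. A single model with the 6 groups was fitted to all probes with limma 3.58.1 in R 4.3.3. A comparison tested the probes above 0 on every array of the groups compared, with variances moderated within each comparison over its tested probes, and Benjamini-Hochberg adjustment over all of them. With 2 arrays against 2, an exact permutation test cannot go below p = 0.333 (two-sided). The procedure was tested on simulated data. The members and lists were chosen with earlier results of these data known.

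Array values and statistics are given for GCN4, for genes past the adjusted p threshold of 0.05 in at least 1 comparison and for the lowest p of a pathway, and at most 4 context genes are named per list and comparison. The replicate letters were taken as a possible pairing of the arrays of the genotypes within a condition. The deviations of same-lettered arrays correlated in air (0.257), hypoxia (0.189) and shift (0.648). Across conditions the correlation ran from -0.06 to 0.30, so ixr1 null air and hypoxia (0.298) correlated as much as the first 2 of these. A pairing is therefore not shown by these values in air and hypoxia, and only the shift value stood apart. A replicate block within condition was an alternative for the genotype comparisons and a block over all arrays for every comparison, beside other scalings, a floor for zeros, bright probes only, fits of the compared arrays alone and leaving out each array. Genome positions and sequences were not used here, and a planned search of promoters for the Gcn4 motif was not run. The values of 1 of the 53 genes are not reported here by name, although it is counted in the totals.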

Additional observations from a re-analysis of the deposited data

How the results depend on the processing

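No call reversed, although values not called could change sign. Of the 40 calls, 15 held under every alternative, and of 519 alternative values 373 were still called and 146 were not. Leaving out arrays gave between 7 and 8 calls for wild type hypoxia against air (12 with all arrays), 3 to 6 for ixr1 null hypoxia against air (8), 0 to 7 and 0 to 4 for shift against air in the wild type and ixr1 null arrays (0 in both), 4 to 9 (14 without both shift B arrays) for wild type shift against hypoxia (10), 6 to 8 (15 without both shift B arrays) for ixr1 null shift against hypoxia (10), and 0 to 2 for the genotypes in hypoxia (0). For the genotypes in air and after the shift, and for both interactions, 0 remained 0. Such fits have fewer arrays, and a lone array is then assumed to vary like the other groups. The shares of all probes called in them are not given here.

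On deposited intensities the counts were 5 for ixr1 null hypoxia against air, 6 for wild type shift against hypoxia and 3 for ixr1 null shift against hypoxia. With arrays centred on their medians they were 3, 5 and 3. Quantile normalization of positive values only gave 6 for wild type shift against hypoxia, and fits of the compared arrays alone gave 4 and 6 for shift against hypoxia. Moderating variances over all probes, an alternative chosen after seeing the data, kept each count within 1.5 times. The replicate block within condition gave 0 calls among the genes in the 5 genotype comparisons, as without it, and the replicate block over all arrays gave 12 for ixr1 null shift against hypoxia and the unblocked count elsewhere. The cause of these changes was not tested.

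Array medians of positive values spread over 1.49 log2 units, and centring moved the median of all probes in ixr1 null shift minus air from 0.30 to -0.78 (genes 0.33 to -0.71), so values there hold only relative to all probes. Readings near the floor limit the sizes for ARG7, TRP3, ASN1, GDH1 and LYS9.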
